A study of Mus musculus with 16 samples.

Results

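The odorant receptors described here are the genes numbered from Olfr1159 to Olfr1318, a run of the receptor family on mouse chromosome 2. They were chosen by number alone: every row of the deposited table whose symbol in the array's annotation is Olfr with a number in that range. This gave 124 genes with 1 probe set each, from Olfr1160 to Olfr1318, among 1080 measured odorant receptors and 22206 tested probe sets. All 124 lie on chromosome 2 in the RefSeq gene table of GRCm38.p6. In that table they form 2 stretches, 89 members up to Olfr1274 and 35 from Olfr1275 on, with 119 protein-coding genes between the stretches, 0 of them odorant receptors. Within the stretches every protein-coding gene is an odorant receptor (96 of 96 and 37 of 37), and the numbers follow chromosome order except at 1 consecutive pair of members, Olfr1204 and Olfr1205.

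The study, called the Kentucky assay, asks which receptors are carried by neurons that respond to an odor, here isoamyl acetate, the banana-scented ester. It used S100a5-tauGFP reporter mice on C57BL/6, both sexes, 7 to 12 weeks old, 24 in all, kept singly for 40 hours in chambers supplied with clean air. After the first 26 hours they received 10-second pulses every 20 minutes, of isoamyl acetate in 1 arm and of filtered air, the vehicle, in the other. Olfactory mucosa was pooled from 3 mice, dissociated and sorted by GFP fluorescence, and each of the 8 pools gave 1 library titled GFP+ and 1 titled GFP-. The groups are odor titled GFP+, odor titled GFP-, vehicle titled GFP+ and vehicle titled GFP-, with 4 libraries each. Every mouse carried the same reporter, in which the S100a5 gene, active in mature olfactory sensory neurons and raised by odor stimulation, drives a GFP that fills axons. RNA of each library was read on a Clariom S array, which gives 1 log2 signal per probe set. A difference of 1 on this scale is a change by a factor of 2.

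As background, odorant receptors are seven-helix receptors of the cilia of olfactory sensory neurons that couple through the G protein Golf and adenylyl cyclase to the cyclic-nucleotide-gated channel. Each mature neuron transcribes a single receptor gene from 1 allele, chosen from clusters that are spread over many chromosomes. The RNA level of a receptor in a bulk sample therefore follows both how many neurons chose it and how much RNA each holds, and fewer cells and less RNA per cell cannot be told apart here. No ligand is assigned to any of these members by the sources used here.

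The labels disagree on GFP: in 16 of 16 libraries the title carries one sign and the field for cell type the other, so the libraries are called titled GFP+ and titled GFP- throughout. In odor mice S100a5 signals spanned 15.23 to 15.94 (titled GFP+) and 16.58 to 16.95 (titled GFP-), and in vehicle mice 14.69 to 15.66 and 16.14 to 16.59, so the gene was lower in titled GFP+. Directions of the sort follow the titles here, and all of them reverse should the other field be the right one. The sorts also differed in other cells. For comparison, 11% of all tested probe sets were called higher and 9.86% lower in titled GFP+ with odor, and 10.2% and 7.16% with vehicle. All 10 measured macrophage and neutrophil markers were called higher in titled GFP+, and their mean signal was 12.83 to 14.23 against 6.16 to 7.78 in titled GFP- with odor, and 13.05 to 13.49 against 5.97 to 7.35 with vehicle. Immature neuron markers averaged 10.52 to 11.18 in titled GFP+ and 8.19 to 8.39 in titled GFP- with odor, with 5 of 8 called higher, and 10.71 to 11.13 against 8.11 to 8.47 with vehicle, with 6 of 8 called higher and 1 lower. In both arms 7 of 8 sustentacular and gland markers, 6 of 6 microvillar, 5 of 5 progenitor and cycling, 4 of 4 lymphocyte and 2 of 2 erythroid markers were called higher. Mean signals with odor were 10.07 to 11.42 against 7.93 to 8.18 for the sustentacular and gland list, 7.23 to 8.44 against 4.77 to 4.98 for microvillar and 7.66 to 8.60 against 4.51 to 4.99 for progenitor and cycling markers. They were 6.95 to 8.54 against 4.38 to 4.59 for the lymphocyte list, whose 4 genes were above background in no library titled GFP-, and 9.47 to 11.00 against 7.82 to 7.93 for the erythroid one. Of the 10 mature neuron markers 3 were called lower in titled GFP+ and 0 higher in either arm, with mean signals of 16.78 to 17.09 against 17.28 to 17.34 with odor. Centring each array on its median made all 10 lower in each arm. Array medians were 6.79 to 6.90 in titled GFP+ and 6.42 to 6.52 in titled GFP-. The part of these differences in the receptor results was not tested.

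Before the values, 4 upstream sequences are shown for the members that carry the sort result at its extremes. Olfr1213 had the largest rise with vehicle and Olfr1220 the largest fall, and Olfr1180 and Olfr1182 lie close together in the list and moved in opposite directions. RefSeq windows of GRCm38.p6 were found for 109 of the 124 members. In 81 of their 111 windows the annotated start is the ATG of the coding sequence, so such windows hold transcribed as well as promoter sequence, and only windows with another start are printed. Each run is the 250 bases before the annotated start, 5′ to 3′ on the gene's strand, with matches to a searched motif, on either strand, in capitals.
Olfr1213, chr2:88980268-88980517, minus strand: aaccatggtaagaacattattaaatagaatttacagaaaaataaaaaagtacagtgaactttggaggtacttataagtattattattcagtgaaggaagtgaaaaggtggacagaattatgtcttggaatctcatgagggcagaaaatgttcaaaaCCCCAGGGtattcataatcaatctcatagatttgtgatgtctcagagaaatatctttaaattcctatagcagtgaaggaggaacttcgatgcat
Olfr1182, chr2:88449122-88449371, minus strand: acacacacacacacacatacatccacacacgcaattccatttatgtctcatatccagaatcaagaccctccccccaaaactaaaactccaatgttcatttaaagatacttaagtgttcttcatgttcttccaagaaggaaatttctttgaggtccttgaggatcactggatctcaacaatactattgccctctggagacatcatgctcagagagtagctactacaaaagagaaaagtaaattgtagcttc
Olfr1220, chr2:89097964-89098213, minus strand: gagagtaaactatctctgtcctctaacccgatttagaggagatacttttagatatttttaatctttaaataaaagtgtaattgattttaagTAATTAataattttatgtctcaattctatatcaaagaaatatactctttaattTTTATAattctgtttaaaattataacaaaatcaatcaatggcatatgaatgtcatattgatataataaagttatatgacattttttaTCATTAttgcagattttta
Olfr1180, chr2:88412690-88412939, minus strand: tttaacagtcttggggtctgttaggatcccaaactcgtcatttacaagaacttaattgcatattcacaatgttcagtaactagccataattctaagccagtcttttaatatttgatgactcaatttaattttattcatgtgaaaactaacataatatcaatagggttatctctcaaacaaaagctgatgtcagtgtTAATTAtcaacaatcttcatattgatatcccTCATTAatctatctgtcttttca
Capitals mark TAATTA and TAATGA, cores of the kind homeodomain proteins bind, CCCNNGGG, a core like that of Ebf factors, and TATAAA, the TATA box core. The window of Olfr1182 held none of these. TAATTA and TAATGA stand together in the windows of Olfr1220 and Olfr1180, and in those of Olfr1167 and Olfr1170, which were also called lower. They stand together too in the windows of Olfr1198, Olfr1226 and Olfr1277, called higher, and of Olfr1247 and Olfr1314, not called. Neither stands in those of Olfr1246, Olfr1270 and Olfr1242, called lower, or of Olfr1213 and Olfr1182, called higher. These windows are examples, and no link with the calls was tested.

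Over whole windows of 300 bases, 250 before the start and 50 after, TAATTA was found in 27% of the 111 member windows, against 17.5% of the 833 windows of other odorant receptors and 5.29% of all 32851 windows. TAATGA was in 27%, 29.1% and 9.78% of the same sets, and TATAAA in 57.7%, 39% and 13.6%. The Ebf-like core CCCNNGGG was in 1.8%, 3.24% and 13.7%, and its longer form, with one fixed base more at each end, was in 0 member windows, 0.6% of other receptor windows and 0.904% of all. The windows overlap in what they share, since neighbouring receptor genes can be copies of each other. Split by the sort call with vehicle, TAATTA stood in 11 of 32 windows of members called higher, 10 of 37 called lower and 9 of 42 not called. TAATGA stood in 6, 13 and 11 of the same windows. These counts describe letters in a window and not binding.

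Most of the receptors gave a signal above the median of the array's negative controls, fewer did so at a stricter limit, and the signals spanned a wide range. A member counted as above background in a library where it exceeded the median of that array's negative control probe sets, which ran from 5.15 to 5.67. By this measure 98 of the 124 members were above background in all 16 libraries, 22 in some and 4 in none, namely Olfr1164, Olfr1188, Olfr1230 and Olfr1314. Against the 95th percentile of the negative controls, 9.39 to 10.09, 27 were above in all libraries, 67 in some and 30 in none. Mean signals over the 16 libraries ran from 3.46 to 16.32, with a median of 9.71. Probe sets differ in brightness, so the signals of different members cannot be ordered as amounts of RNA.

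The 5 members with the highest mean signal were Olfr1264, Olfr1197, Olfr1222, Olfr1193 and Olfr1219. Olfr1264 had 14.71, 14.65, 15.94 and 16.01 in odor libraries titled GFP+, against 17.33, 17.38, 17.70 and 17.40 in odor titled GFP-. With vehicle it had 14.79, 14.40, 15.55 and 15.78 in titled GFP+ and 17.38, 17.15, 17.52 and 17.40 in titled GFP-, so the sorts did not overlap in either arm. Its difference, titled GFP+ minus titled GFP-, was -2.12 with odor (SE 0.32, adjusted p = 8.27e-05) and -2.23 with vehicle (SE 0.32, adjusted p = 5.11e-05). Olfr1197 ran from 15.22 to 16.34 in odor titled GFP+, 15.08 to 16.27 in odor titled GFP-, 16.12 to 16.82 in vehicle titled GFP+ and 16.17 to 16.53 in vehicle titled GFP-. Its groups overlapped in every comparison, and it was not called. Olfr1222 had 14.48 to 15.92 in odor titled GFP+ and 14.58 to 16.77 in odor titled GFP-, against 14.47 to 15.91 and 15.33 to 16.68 in the matching vehicle groups, and was not called either. At the other end, Olfr1164 lay between 2.71 and 3.96 and Olfr1314 between 3.44 and 5.10 over all 16 libraries, below the background median in each.

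The sort parted the chromosome 2 receptors in both directions, and in nearly equal numbers. With odor, limma called 35 of the 124 members higher and 37 lower in titled GFP+ (72 in all, adjusted p below 0.05), where 11% of all tested probe sets were called higher, 9.86% lower and 20.9% either way. With vehicle it called 33 higher and 40 lower (73 in all), where 10.2% of all tested probe sets were called higher, 7.16% lower and 17.3% either way. Among the 956 other odorant receptors 66.4% were called with odor, 21.5% higher and 44.9% lower, and 64.5% with vehicle, 22.5% higher and 42.1% lower. The median sort difference of the members was -0.21 with odor and -0.13 with vehicle, against -0.14 and -0.13 over all tested probe sets and -0.63 and -0.52 over the other odorant receptors. These are descriptions, and no test was made of the list against other genes.

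**Figure D1:**
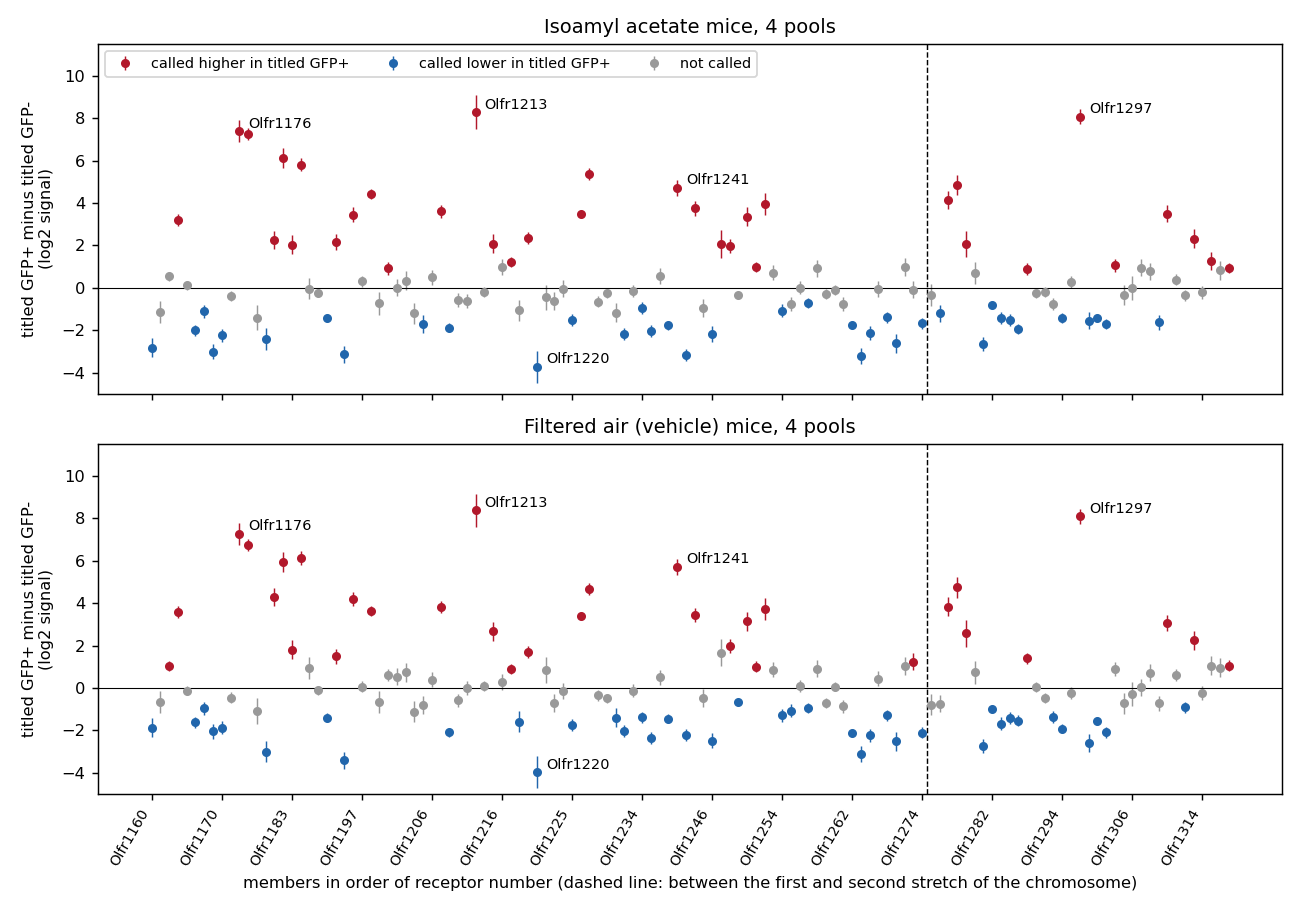
Sort difference (log2 signal, titled GFP+ minus titled GFP-) of the 124 members in order of receptor number, in isoamyl acetate mice above and filtered-air mice below. Points are limma estimates from 4 pools per arm, bars are 1 SE, red and blue points are called higher and lower, and grey points are not called. Rises reach 8.29 with odor and 8.38 with vehicle while falls stop at -3.74 and -3.98, and called members of both directions stand next to each other along the whole list.

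The differences were large and lopsided. They ran from -3.74 to 8.29 with odor and from -3.98 to 8.38 with vehicle, and 11 members lay above 4 in each arm while 0 lay below -4. In 64 members with odor and 78 with vehicle the 4 libraries of one sort did not overlap those of the other, where 21.9% and 23.3% of all tested probe sets did not overlap. With odor 43 members were higher and 43 lower in all 4 pools, and with vehicle 40 and 52, counts for which the share over all tested probe sets is not given here. The split of the calls depends on how arrays are scaled, because the sorts differ in their array medians. Centring each array on its median gave 30 higher and 58 lower with odor and 31 and 55 with vehicle, and centring on the mature neuron markers gave 42 and 31 with odor and 41 and 33 with vehicle. No called member changed its sign under any of these. The share of all tested probe sets called under these scalings is not given here, so the changed split is not read as particular to the members.

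The rises were led by Olfr1213, Olfr1297, Olfr1176 and Olfr1178, each by over 6 in both arms. In the sentences that follow, values stand in order of replicate number, and libraries of one treatment and number come from the same pool. Olfr1213 had 13.87, 13.58, 14.59 and 14.73 in odor libraries titled GFP+, against 5.89, 7.12, 3.83 and 6.79 in odor titled GFP-. In vehicle mice it had 14.42, 13.41, 14.65 and 14.54 in titled GFP+ and 5.54, 8.35, 6.13 and 3.50 in titled GFP-. Every library titled GFP+ was bright and the dim side scattered widely, with 3 of 4 odor and 2 of 4 vehicle libraries titled GFP- above the background median. The difference was 8.29 with odor and 8.38 with vehicle (SE 0.79 each, adjusted p = 4.91e-07 and 4.54e-07).

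Olfr1297 had 15.16, 15.69, 15.22 and 14.81 in odor titled GFP+ and 8.02, 6.40, 7.88 and 6.27 in odor titled GFP-. Its vehicle values were 15.60, 15.85, 15.16 and 15.29 in titled GFP+ and 7.13, 7.96, 6.88 and 7.56 in titled GFP-. All 16 values were above the background median and the sorts were far apart in every pool, by 8.08 with odor (SE 0.36, adjusted p = 5.91e-11) and 8.09 with vehicle (SE 0.36, adjusted p = 6.17e-11), or 271-fold and 273-fold. Olfr1176 had 13.62, 14.54, 13.37 and 12.89 in odor titled GFP+ and 5.99, 7.77, 5.77 and 5.36 in odor titled GFP-. Its vehicle libraries had 13.40, 14.57, 13.40 and 13.12 in titled GFP+ and 5.92, 7.68, 5.86 and 5.93 in titled GFP-. The library numbered 2 was the highest of its group in all 4 groups. Its sort difference was 7.39 with odor and 7.27 with vehicle (SE 0.51 each, adjusted p = 9.7e-09 and 1.29e-08).

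Olfr1178, the next member after Olfr1176, had 12.27, 12.66, 12.79 and 12.61 in odor titled GFP+ and 5.52, 5.17, 5.58 and 5.02 in odor titled GFP-. Vehicle mice gave 12.55, 12.45, 12.39 and 11.90 in titled GFP+ and 5.07, 5.32, 6.78 and 5.13 in titled GFP-. Only 1 library titled GFP- of each arm was above the background median, and the difference was 7.26 with odor (SE 0.29, adjusted p = 2.63e-11) and 6.74 with vehicle (SE 0.29, adjusted p = 5.48e-11). Olfr1184 was not above that median in any library titled GFP-, so its difference has only a bound. With the dim side set at that median it was at least 33.9-fold higher in titled GFP+ with odor and at least 37.4-fold with vehicle (adjusted p = 5.75e-10 and 3.2e-10). Its signal was 10.01 to 11.10 in odor titled GFP+ against 3.87 to 5.14 in odor titled GFP-, and 10.40 to 10.94 in vehicle titled GFP+ against 3.92 to 5.18 in vehicle titled GFP-. The 95th percentile of the negative controls was 9.40 to 10.00 in odor titled GFP- and 9.43 to 10.09 in vehicle titled GFP-. This is not far below the titled GFP+ signals of Olfr1184, so its bound holds for the median only and is much smaller at the stricter limit. How far the dim side can be read sets these sizes. With the dim libraries raised to the 95th percentile of their negative controls, a limit chosen after the values were seen, the difference was 5.54 with odor and 5.76 with vehicle for Olfr1297, 4.51 and 4.54 for Olfr1213, 3.92 and 3.91 for Olfr1176, and 2.90 and 2.61 for Olfr1178.

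**Figure D2:**
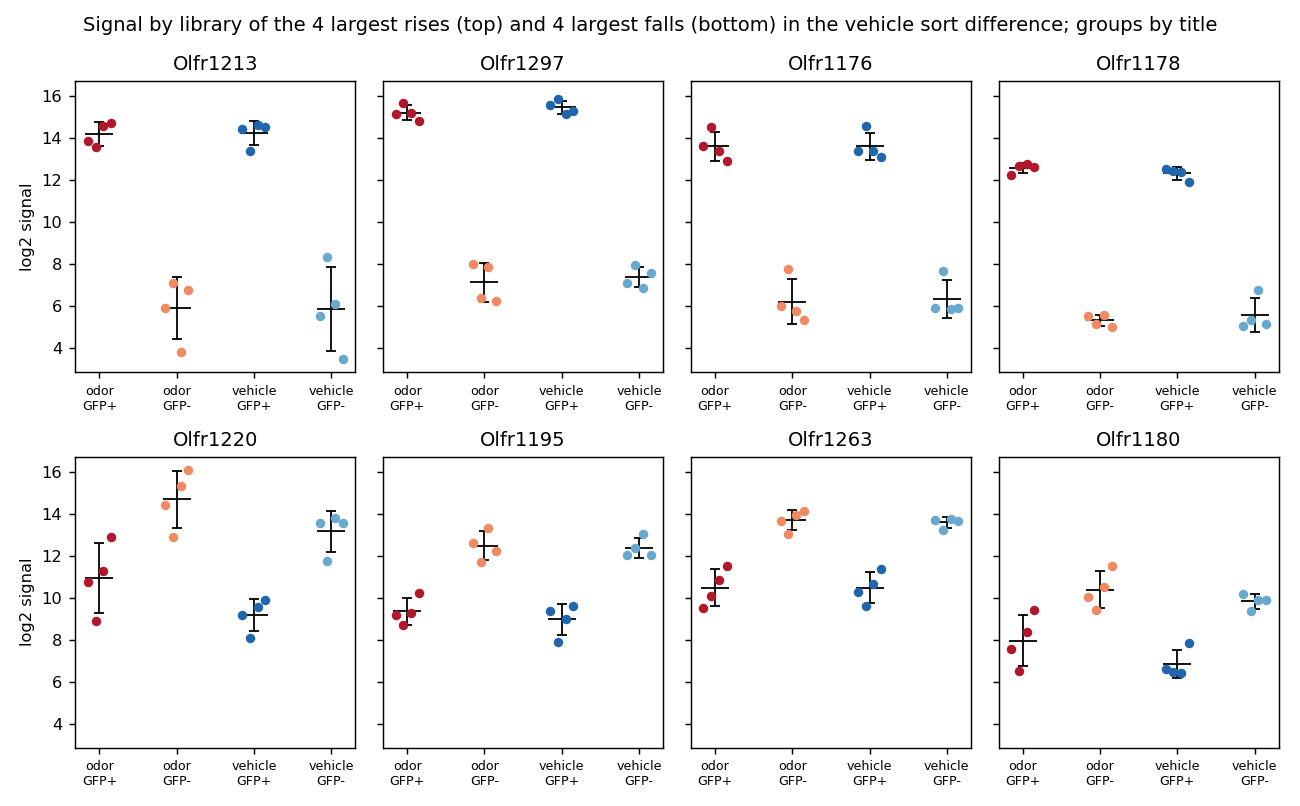
Log2 signal of 8 members in each library, with groups named by title and odor left of vehicle. Dots are libraries, horizontal bars are group means and whiskers are 1 SD (n = 4). In the upper row every library titled GFP+ lies above 11 and every library titled GFP- below 9. In the lower row the libraries titled GFP- are the higher ones, and Olfr1220 and Olfr1180 spread over several units within a group.

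The other large rises were Olfr1182, Olfr1241, Olfr1278, Olfr1228 and Olfr1181. Olfr1182 was at 11.09 to 12.27 in odor titled GFP+ against 4.37 to 6.36 in odor titled GFP-, and at 11.88 to 13.14 in vehicle titled GFP+ against 5.65 to 7.68 in vehicle titled GFP-. The difference was 6.12 with odor and 5.94 with vehicle (SE 0.46 each, adjusted p = 2.76e-08 and 4.24e-08), with 1 of 4 odor and 3 of 4 vehicle libraries titled GFP- above the background median. With the dim libraries raised to the 95th percentile of the negative controls, as above, it was 1.76 with odor and 2.69 with vehicle, against 0.94 and 1.36 for Olfr1278 and 1.97 and 3.33 for Olfr1241. Olfr1228 was at 13.84 to 15.51 in odor titled GFP+ against 8.90 to 9.56 in odor titled GFP-, and at 13.90 to 14.75 against 9.45 to 10.10 with vehicle. Its dim side lay near the 95th percentile of the negative controls. That limit was 9.40 to 10.00 in odor titled GFP- and 9.43 to 10.09 in vehicle titled GFP-. The differences of Olfr1228, 5.38 and 4.69 (SE 0.29 each, adjusted p = 4.09e-10 and 2.28e-09), came with all 16 libraries above the background median. Olfr1278, in the second stretch, differed by 4.84 with odor and 4.74 with vehicle (SE 0.49 each, adjusted p = 8.58e-07 and 1.18e-06). Its vehicle titled GFP- libraries ran from 5.24 to 8.10, and 3 of 4 libraries titled GFP- were above the background median in each arm. In none of these 5 did the sorts overlap in either arm.

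The falls were led by Olfr1220, Olfr1195, Olfr1263 and Olfr1180. Olfr1220 had 10.74, 8.90, 11.28 and 12.91 in odor titled GFP+, against 14.42, 12.91, 15.35 and 16.09 in odor titled GFP-. With vehicle it had 9.21, 8.09, 9.58 and 9.88 in titled GFP+ and 13.57, 11.74, 13.81 and 13.57 in titled GFP-. The pools differed by several units and both sorts of a pool moved together, so that the brightest odor library titled GFP+ and the dimmest odor library titled GFP-, from different pools, both stood at 12.91, while the difference within pools stayed between -4.06 and -3.19 with odor and between -4.36 and -3.65 with vehicle. The estimate was -3.74 with odor (SE 0.75, adjusted p = 0.00148) and -3.98 with vehicle (SE 0.75, adjusted p = 0.000881).

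Olfr1195 had 9.21, 8.73, 9.29 and 10.24 in odor titled GFP+ and 12.64, 11.71, 13.35 and 12.26 in odor titled GFP-, against 9.37, 7.91, 8.98 and 9.64 and 12.06, 12.39, 13.06 and 12.04 in the matching vehicle groups. The sorts did not overlap, and the difference was -3.12 with odor and -3.41 with vehicle (SE 0.40 each, adjusted p = 1.52e-05 and 6.03e-06). Olfr1263 had 9.51, 10.08, 10.84 and 11.51 in odor titled GFP+ and 13.68, 13.03, 13.97 and 14.16 in odor titled GFP-. In vehicle mice it had 10.27, 9.63, 10.68 and 11.37 in titled GFP+ and 13.73, 13.24, 13.77 and 13.65 in titled GFP-. The dim side was the more scattered one, and the difference was -3.22 with odor and -3.11 with vehicle (SE 0.39 each, adjusted p = 8.09e-06 and 1.31e-05).

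Olfr1180 had 7.58, 6.52, 8.36 and 9.42 in odor titled GFP+ and 10.07, 9.44, 10.54 and 11.52 in odor titled GFP-. Its vehicle libraries had 6.62, 6.49, 6.44 and 7.83 in titled GFP+ and 10.21, 9.36, 9.90 and 9.89 in titled GFP-. Like Olfr1220, it was brightest in the odor pool numbered 4 in both sorts, and its sorts did not overlap in either arm, narrowly with odor. The difference was -2.42 with odor (SE 0.52, adjusted p = 0.00237) and -3.00 with vehicle (SE 0.52, adjusted p = 0.000357). Further falls with vehicle were Olfr1281 at -2.72 (SE 0.33), Olfr1298 at -2.60 (SE 0.41), Olfr1270 at -2.52 (SE 0.45), Olfr1246 at -2.48 (SE 0.36) and Olfr1238 at -2.34 (SE 0.28). In each of these 5 the 4 libraries titled GFP+ lay below the 4 titled GFP- in both arms, and the largest adjusted p with vehicle was 0.000553, for Olfr1270.

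The calls of the 2 arms, which share no library, fell mostly on the same members. Both contrasts come from the same fit and share its estimate of the spread, so the calls of the 2 arms are not independent. Called in both were 65 members, 90.3% of the odor calls and 89.0% of the vehicle calls, with 31 higher and 34 lower and 0 of opposite sign. The share of all tested probe sets called in both arms is not given here, so this overlap is not read as particular to the members. The 31 members higher in both had a median difference of 3.49 with odor and 3.58 with vehicle, and the 34 lower in both -1.82 and -1.97. Called with odor alone were 4 higher (Olfr1200, Olfr1247, Olfr1303 and Olfr1316) and 3 lower (Olfr1205, Olfr1276 and Olfr1309). Called with vehicle alone were 2 higher (Olfr1162 and Olfr1272) and 6 lower (Olfr1218, Olfr1231, Olfr1249, Olfr1255, Olfr1290 and Olfr1312), and 44 were called in neither. These calls come from a fit without a pool term. With the pool as a block 9 calls were gained in each arm, so the count called in neither holds for the unblocked fit only. Olfr1179, picked after its values were seen, was lower in all 4 pools of both arms, at -1.74 to -1.20 with odor and -1.73 to -0.51 with vehicle, and its adjusted p was 0.107 and 0.235 without the block and 0.000735 and 0.00429 with it. None of these 15 was called in the test of the difference between arms. Over the 124 members the 2 sort differences correlated with r = 0.98, given as a description of genes that were read on the same arrays within each arm.

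**Figure D3:**
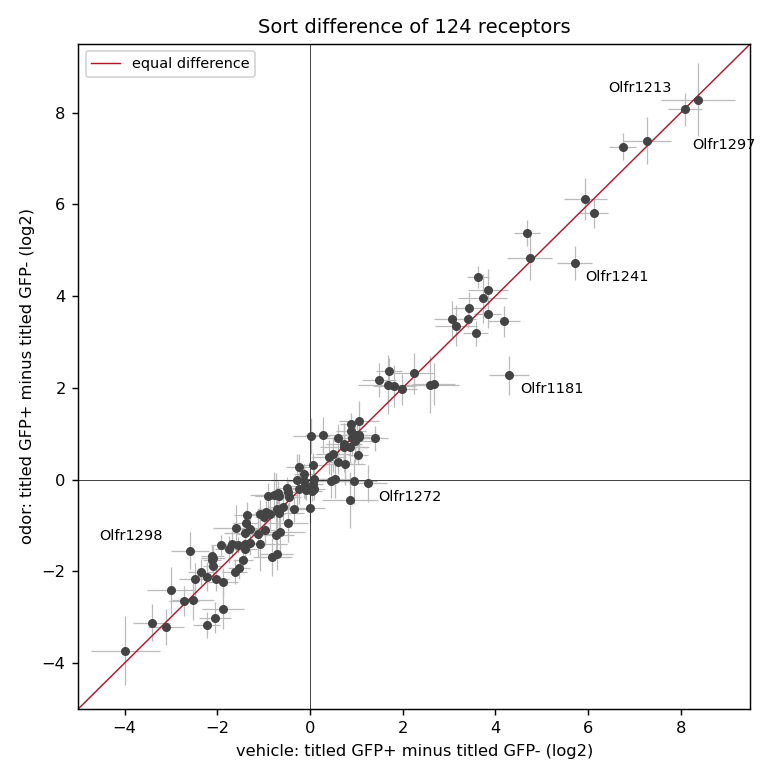
Sort difference of each of the 124 members in isoamyl acetate mice (vertical axis) against filtered-air mice (horizontal axis), both titled GFP+ minus titled GFP- in log2 units. Bars are 1 SE and the red line marks equal differences. Olfr1181 lies farthest below the line, at 2.27 with odor and 4.29 with vehicle, and the points are otherwise spread along it from -3.98 to 8.38.

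The assay's own question is whether odor changes the sort difference of a receptor, and limma called 0 of the 124 members in that interaction, where 0.0045% of all tested probe sets and 0.105% of the other odorant receptors were called. At an unadjusted p below 0.05 there were 4 members, 1 positive and 3 negative, where 2.94% of all tested probe sets and 5.44% of the other odorant receptors passed the same limit. The smallest adjusted p over the members was 1.00, or 0.693 with the pool as a block. The 4 were Olfr1181, Olfr1198, Olfr1242 and Olfr1272.

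Olfr1181 had the smallest p. It had 9.01, 9.75, 9.75 and 10.40 in odor titled GFP+ and 6.45, 7.26, 8.27 and 7.84 in odor titled GFP-. Vehicle mice gave 10.05, 10.39, 9.90 and 9.56 in titled GFP+ and 5.55, 6.32, 6.43 and 4.41 in titled GFP-, of which 2 were above the background median. All odor libraries titled GFP- were brighter than all vehicle libraries titled GFP-, while the titled GFP+ groups overlapped. Every library titled GFP- lay below the 95th percentile of the negative controls, 9.40 to 10.00 with odor and 9.43 to 10.09 with vehicle. The sort difference was 2.27 with odor (SE 0.43, adjusted p = 0.000796) and 4.29 with vehicle (SE 0.43, adjusted p = 8.74e-07), and the interaction was -2.02 (SE 0.61, unadjusted p = 0.00406, adjusted p = 1). Leaving out single libraries moved the interaction between -2.36 and -1.60 with no call. Within titled GFP- the odor difference was 1.78 (SE 0.43, unadjusted p = 0.000721, adjusted p = 1), and within titled GFP+ it was -0.25 (SE 0.43).

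Olfr1272 was the only member that was called in one arm and had the opposite sign in the other. It had 6.99, 7.13, 6.64 and 6.62 in odor titled GFP+ and 6.56, 8.07, 6.54 and 6.55 in odor titled GFP-, against 7.94, 7.03, 7.88 and 9.20 in vehicle titled GFP+ and 7.14, 7.32, 6.31 and 6.30 in vehicle titled GFP-. The sorts overlapped in both arms, and every value lay below the 95th percentile of the negative controls, 9.39 to 10.09. The difference was -0.08 with odor (SE 0.41, adjusted p = 0.91) and 1.24 with vehicle (SE 0.41, adjusted p = 0.044), and the vehicle call was lost with the pool as a block (adjusted p = 0.0596) and in 10 of 16 fits that left out 1 library. The odor value turned to 0.30 without the odor titled GFP- library of replicate 2. The interaction was -1.32 (SE 0.57, unadjusted p = 0.0346, adjusted p = 1). For Olfr1242 the interaction was -0.94 (SE 0.41, unadjusted p = 0.0339), and for Olfr1198 it was 0.79 (SE 0.33, unadjusted p = 0.0296), both with an adjusted p of 1.

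Odor against vehicle within a sort likewise gave 0 called members, among libraries titled GFP+ (0.00901% of all tested probe sets called) and among libraries titled GFP- (0.018%, and 0.105% of the other odorant receptors). Within titled GFP+ 12 members passed an unadjusted p below 0.05, 3 higher and 9 lower with odor, where 4.83% of all tested probe sets and 8.26% of other odorant receptors did. Within titled GFP- 17 members passed it, 6 higher and 11 lower, where 3.3% of all tested probe sets and 7.11% of other odorant receptors did. The smallest adjusted p over the members was 0.968 in titled GFP+ and 1.00 in titled GFP-, or 0.207 and 0.585 with the replicate number as a block. Differences ran from -1.39 to 1.77 in titled GFP+ and from -1.14 to 1.94 in titled GFP-. These 2 contrasts and the interaction use the same 16 libraries.

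The odor and vehicle libraries did not overlap in 2 members within titled GFP+, Olfr1238 and Olfr1288, where 2.63% of all tested probe sets did not overlap. Within titled GFP- they did not overlap in 6, namely Olfr1161, Olfr1181, Olfr1198, Olfr1238, Olfr1259 and Olfr1301, where the share was 2.07%. Olfr1238 was in both sets. It had 10.26, 10.61, 10.71 and 9.67 in odor titled GFP+ against 10.79, 11.05, 11.28 and 11.26 in vehicle titled GFP+, and 12.39, 12.88, 12.58 and 11.48 in odor titled GFP- against 13.13, 13.37, 13.24 and 14.01 in vehicle titled GFP-. Odor libraries were lower in both sorts, by -0.78 (SE 0.28, unadjusted p = 0.0136, adjusted p = 0.968) and -1.11 (SE 0.28, unadjusted p = 0.00119, adjusted p = 1).

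Among libraries titled GFP+ the smallest p was that of Olfr1241, one of the large sort rises. It had 10.92, 12.88, 11.99 and 10.83 with odor against 13.19, 13.08, 13.04 and 12.87 with vehicle, so the odor libraries scattered over 2 units below a tight vehicle group and 1 of them overlapped it. The difference was -1.39 (SE 0.37, unadjusted p = 0.00166, adjusted p = 0.968), and its sort difference was 4.72 with odor against 5.71 with vehicle (SE 0.37 each). Olfr1288 had 6.01, 6.78, 6.33 and 6.87 in odor titled GFP+ against 6.95, 7.37, 7.58 and 7.03 in vehicle titled GFP+, and differed by -0.74 (SE 0.22, unadjusted p = 0.0036, adjusted p = 0.968). The largest positive difference within titled GFP+ was that of Olfr1220, at 1.77 (SE 0.75, adjusted p = 0.968), whose odor and vehicle libraries overlapped. Among libraries titled GFP- the largest differences were Olfr1221, at 7.99, 7.01, 7.00 and 8.93 with odor against 7.25, 4.34, 6.84 and 4.74 with vehicle (1.94, SE 0.61, unadjusted p = 0.00554, adjusted p = 1), and Olfr1181 above. Olfr1186, at 7.36, 6.51, 6.73 and 5.43 with odor against 5.81, 4.52, 4.92 and 4.16 with vehicle, differed by 1.65 (SE 0.50, unadjusted p = 0.00413, adjusted p = 1). For Olfr1221 and Olfr1186 the vehicle side reached below the background median, and the groups overlapped.

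**Figure D4:**
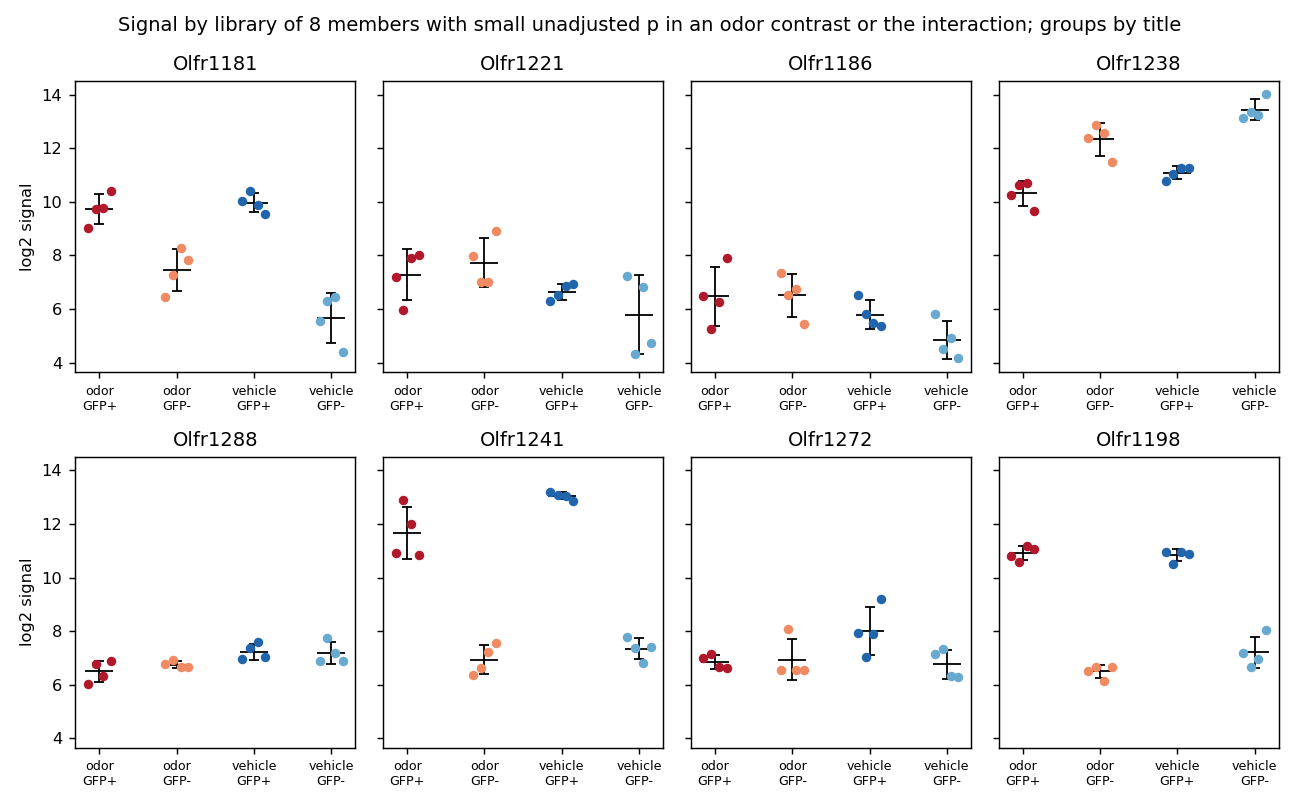
Log2 signal in each library of 8 members with a small unadjusted p in the interaction or in an odor contrast, groups named by title, odor left of vehicle. Dots are libraries, horizontal bars are means and whiskers are 1 SD (n = 4). None of the 8 was called in an odor contrast or the interaction. In Olfr1181 the odor titled GFP- libraries lie at 6.45 to 8.27, all above those of vehicle titled GFP-, at 4.41 to 6.43.

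Neighbours in the list were compared by the gap between their sort differences. The median gap in the vehicle sort difference was 1.68 between consecutive members (123 pairs), 1.75 at 2 places apart, 1.97 at 5 and 2.04 at 10, against 1.97 over all 7626 pairs. With odor the same medians were 1.69, 1.68, 1.86, 1.90 and 1.95. Taken pool by pool, the median gap of consecutive members was 1.70, 1.82, 2.04 and 1.94 in the odor pools, against 2.04, 2.01, 2.05 and 2.07 over all pairs, and 1.80, 1.77, 1.92 and 1.90 in the vehicle pools, against 2.09, 1.83, 2.01 and 2.25. The sort differences of consecutive members correlated with r = 0.08 over the 123 pairs in vehicle. Over the 16 libraries the median r between consecutive members was 0.20, against 0.07 over all pairs. With the group means taken out it was 0.24 against 0.16. Pairs share members and libraries, so no test was made.

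**Figure D5:**
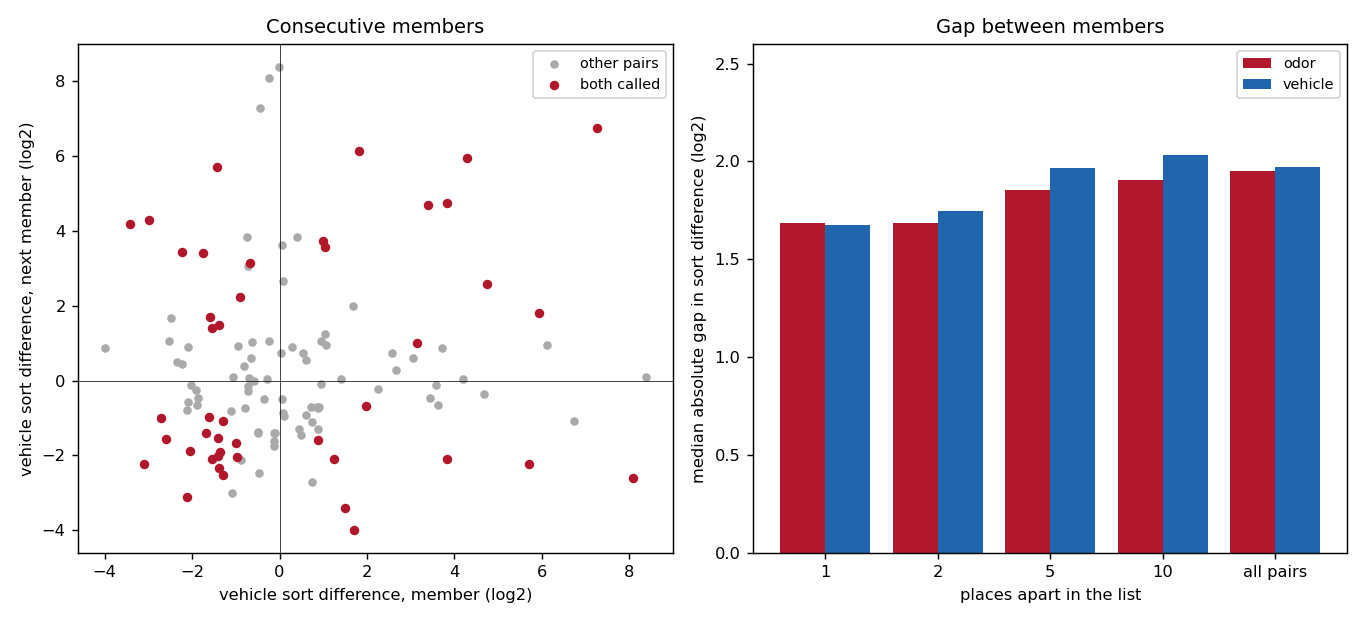
Left, the vehicle sort difference (log2) of each member on the horizontal axis and of the next member on the vertical axis, with red points where both were called. Right, the median absolute gap in sort difference between members 1, 2, 5 and 10 places apart and over all pairs, with odor left of vehicle. Red points stand in all 4 quadrants, and the vehicle bars run from 1.68 at 1 place to 2.04 at 10.

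The direction of the calls was counted in the same way. Of 44 consecutive pairs with both members called in vehicle, 26 moved one way (10 both higher and 16 both lower) and 18 moved opposite ways, so that 59.1% shared a direction, against 49.8% of all 2628 pairs of called members. The longest run of calls in one direction was 4 higher, from Olfr1181 to Olfr1184, and 5 lower, from Olfr1281 to Olfr1286. In bins of 20 numbers, called members of both directions occurred in each bin and arm. The bin from 1179 to 1198 had 7 higher and 3 lower of 14 in both arms, the bin from 1239 to 1258 had 7 and 5 of 19 with odor and 6 and 7 with vehicle, and the bin from 1279 to 1298 had 3 higher and 7 lower of 15 with odor and 3 and 8 with vehicle. The 2 stretches of the chromosome had medians of -0.23 and -0.18 with odor and -0.12 and -0.24 with vehicle.

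The members most alike, by the rule of the smallest vehicle gap among consecutive called pairs, were Olfr1284 with Olfr1286 (gap 0.12), Olfr1168 with Olfr1170 (0.18), Olfr1254 with Olfr1255 (0.22), Olfr1283 with Olfr1284 (0.27) and Olfr1176 with Olfr1178 (0.53). Of these, Olfr1168 and Olfr1170 also followed each other from library to library, with r = 0.96 over 16 libraries and r = 0.83 with group means taken out. Olfr1176 and Olfr1178 had r = 0.97, but -0.09 once the group means were removed. The arrays do not say whether probe sets of near-identical genes read each other's RNA, so members that follow each other may share signal. Olfr1255 of the third pair lost its vehicle call (-1.07, SE 0.32, adjusted p = 0.0257) in 4 of 16 fits without 1 library.

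The least alike neighbours, by the same rule among consecutive pairs with both members called, moved in opposite directions. Consecutive pairs with an uncalled member reached gaps of 8.39 (Olfr1212 and Olfr1213), 8.34 (Olfr1295 and Olfr1297) and 8.29 (Olfr1213 and Olfr1214). Olfr1297 and Olfr1298 differed by 10.69 in their vehicle sort difference, with Olfr1298 at -2.60 beside Olfr1297 at 8.09. Olfr1298 had 8.84, 9.32, 9.66 and 10.29 in odor titled GFP+ and 11.00, 11.26, 11.69 and 10.36 in odor titled GFP-, against 8.80, 9.08, 10.39 and 8.24 and 11.31, 11.37, 12.28 and 11.94 in the matching vehicle groups. It was lower in titled GFP+ in every pool, the reverse of its neighbour. Olfr1241 stood between 2 members called lower, Olfr1240 at -1.44 (SE 0.21) and Olfr1242 at -2.23 (SE 0.29), with gaps of 7.15 and 7.94. Olfr1195 and Olfr1196 were 7.60 apart, with Olfr1196 higher by 4.19 (SE 0.34), and Olfr1180 and Olfr1181 were 7.29 apart. In the same places the odor gaps were 9.63, 6.48, 7.90, 6.57 and 4.69.

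Lists of genes that serve olfactory neurons in general were read beside the receptors. Of 24 listed transduction and trafficking genes 22 were measured, and in each arm 2 were called higher and 3 lower in titled GFP+, with a median of -0.21 with odor and -0.15 with vehicle. Of all tested probe sets 20.9% were called with odor and 17.3% with vehicle, so calls on this list were about as frequent as over the array. The 3 lower were Pde1c, a calcium-activated phosphodiesterase of the cilia (-0.84 with odor, SE 0.12, and -0.66 with vehicle, SE 0.12), Ano2, the calcium-activated chloride channel (-0.51 and -0.45, SE 0.12 each), and Slc24a4, a sodium-calcium exchanger (-0.49 and -0.58, SE 0.15 each). Camk1d, a calmodulin-dependent kinase, was higher by 0.46 with odor and 0.68 with vehicle (SE 0.15 each). Grk3, a receptor kinase, was also called higher, but it was above the background median in 2 of 4 libraries titled GFP+ and 0 of 4 titled GFP- in each arm, so no size is given. All 5 called genes are named, after their values were seen. Median centring gave 18 lower with 1 higher in odor and 0 in vehicle, and centring on mature neuron markers left 1 lower and 2 higher. Most of those markers, Pde1c and Ano2 among them, are on this list themselves. The second centring therefore sets the list largely against itself, and its smaller count of lower genes cannot be read as a result. Of 16 receptor-choice genes 1 was called, Lbr, the lamin B receptor of the nuclear envelope, higher by 1.62 with odor and 1.49 with vehicle (SE 0.23 each). Median centring made 9 of the 16 lower in each arm, and centring on mature neuron markers made 0 lower, with 5 higher in odor and 3 in vehicle. The markers of the dorsal zone, Nqo1 and Acsm4, and of the ventral zone, Ncam2 and Nrp2, gave 0 calls in either sort contrast. Median centring made the 2 ventral zone markers lower in each arm, and the 2 dorsal zone markers lower with odor but not with vehicle. No gene of the transduction and trafficking or receptor-choice lists, and none of these zone markers, was called in the interaction or the odor contrasts.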

How the data were processed

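RNA of 16 libraries was measured on Clariom S arrays. The authors deposited 1 table of log2 signals, and per the submitters' processing notes the tool was Affymetrix Expression Console. Its version, the normalization and the genome build are not given in the sources used. Signals ran from 1.68 to 19.33. Of 28846 probe sets 6640 controls were left out and 22206 tested, and 5222 negative controls gave the background. The number of arrays limits the precision.

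Group means of the 4 groups were fitted to all 16 arrays with limma 3.58.1 in R 4.3.3 (lmFit, eBayes, 12 residual degrees of freedom). P-values were Benjamini-Hochberg adjusted over the 22206 probe sets for each of 5 comparisons, and 0.05 was the threshold. The fit was tested on simulated data. Values were summarised in Python 3.11.15 with pandas 2.3.3. Receptors were 1 probe set per gene, the one of highest mean.

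Same-numbered libraries of one treatment come from the same pool, per the titles, and the pairing rests on the titles alone. Their deviations from the group means correlated with r of 0.158 to 0.399. Odor and vehicle libraries of one number had r of 0.174 to 0.278 within titled GFP+ and of 0.0729 to 0.406 within titled GFP-. These r therefore cannot tell a shared pool from a shared replicate number. The reported fit has no pool term, and the pool as a block is an alternative. Odor and vehicle libraries of one number share no mice by the labels. The p-values of the reported fit measure the spread between libraries of a group, each from a different pool. They do not measure the spread of the differences within pools.

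The members and gene lists were chosen with earlier results of these data known. Members named by rule are the 5 brightest and 2 dimmest, and the 10 largest called rises and falls with vehicle whose sorts do not overlap. The rule also takes those of smallest p in the interaction (10) and in each odor contrast (5). It further takes those that flip sign between arms and are called in either, and the 5 neighbour pairs most and least alike. Other members are named where they make up a count or serve as examples, and follow no such rule. Alternatives were other scalings, the pool as a block, a filter on dim probe sets, trended and robust variances, and leaving out single libraries. Upstream sequences and gene order are from RefSeq, GRCm38.p6.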

Additional observations from a re-analysis of the deposited data

Results flagged for a closer look

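In groups of 4 libraries, 1 library of a named member stood apart from the other 3 by Dixon's 95% criterion in 8 of 176 groups, and chance flags about 1 group in 20. Olfr1164 was lowest in odor titled GFP- replicate 1, at 2.71 against 3.57 to 3.69 in the others, all below background. Olfr1176 was highest in vehicle titled GFP- replicate 2, at 7.68 against 5.86 to 5.93. Olfr1178 was highest in vehicle titled GFP- replicate 3, at 6.78 against 5.07 to 5.32. Olfr1180 was highest in vehicle titled GFP+ replicate 4, at 7.83 against 6.44 to 6.62. Olfr1182 was highest in odor titled GFP+ replicate 4, at 12.27 against 11.09 to 11.27. Olfr1198 was lowest in vehicle titled GFP+ replicate 2, at 10.51 against 10.90 to 10.97. Olfr1220 was lowest in vehicle titled GFP- replicate 2, at 11.74 against 13.57 to 13.81. Olfr1272 was highest in odor titled GFP- replicate 2, at 8.07 against 6.54 to 6.56, the library whose omission turned its odor value.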

How the results depend on the processing

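The total of sort calls of the members kept to within 1.5 times the reported number under every alternative run, while the 37 lower with odor became 58 under median centring, and the interaction and both odor contrasts gave 0 calls in each. Without single libraries the sort calls numbered 64 to 72 with odor and 67 to 75 with vehicle, and the median difference ran from -0.27 to -0.10 and from -0.20 to -0.09. With the replicate block there were 37 higher and 43 lower with odor and 36 and 44 with vehicle, where the calls of Olfr1254 with odor (adjusted p = 0.0514) and of Olfr1231 and Olfr1272 with vehicle were lost. The share of all tested probe sets called with the block is not given here. Centring arrays on their median moved the median member difference to -0.58 with odor and -0.50 with vehicle, and the stricter background lowered the members above it in all libraries to 27. Among the values checked for the reason a member was named, those that turned sign, none of them called, were Olfr1164 with vehicle (0.13 under mature neuron marker centring, 0.011 under quantile normalization), Olfr1197 with vehicle (-0.32 under median centring, -0.088 to 0.15 without single libraries, lowest without vehicle titled GFP+ replicate 4), Olfr1272 with odor (0.25 under mature neuron marker centring, -0.21 to 0.30 without single libraries, highest without odor titled GFP- replicate 2) and Olfr1314 with vehicle (0.022 under mature neuron marker centring). Without single libraries, other uncalled sort differences also crossed 0: Olfr1164 with odor (-0.11 to 0.22), Olfr1186 with odor (-0.51 to 0.37), Olfr1288 with vehicle (-0.069 to 0.24) and Olfr1314 with odor (-0.37 to 0.13). The cause was not tested. Leaving out neighbour pairs by protein identity was not run, nor were pairs of highest identity named. The floor at the 95th percentile of the negative controls was chosen after seeing the data. Signals near background limit the size of the largest rises.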

Other observations

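The pool numbered 2 stood apart in both arms for a pair of members with opposite sort differences. Olfr1176 was highest in replicate 2 of all 4 groups, and Olfr1220 was lowest in replicate 2 of all 4 groups, at 8.90 and 12.91 in odor titled GFP+ and odor titled GFP- and at 8.09 and 11.74 in vehicle titled GFP+ and vehicle titled GFP-. The labels tie odor and vehicle pools of one number by the number alone. Deviations of odor and vehicle libraries of one number correlated with r of 0.174 to 0.278 within titled GFP+ and of 0.0729 to 0.406 within titled GFP-, over all tested probe sets. These members were picked out after their values were seen.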
